A study of Homo sapiens with 6 samples.

Results

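DNA repair genes named RAD, FANC, XRCC, ERCC, BRCA, MSH, MLH or PMS were examined in MIA PaCa-2 cells, an established human pancreatic carcinoma line. Members were every row of the deposited gene table that holds 1 gene name of these families, which gave 48 genes of 18268 rows. The rule uses gene names and no measured value. Another 9 rows join such a name with other genes and were not members. XRCC1, RAD50, RAD51D, RAD54B and ERCC5 stand only in such joined rows.

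The series compared 3 libraries of cells with the pCDH vector (vector control) and 3 libraries of cells with overexpression of the long noncoding RNA LINC00901. Both groups are the same line, grown in DMEM with bovine and horse serum, and total RNA was extracted from them. The labels do not say whether the replicates were separate cultures, or whether the overexpressing line was 1 clone or a pool. A p-value here covers the spread among the 6 libraries, which may be technical. Among the deposited rows 0 name LINC00901, so its overexpression was not checked. The labels call the cells epithelial. Of that class, the keratin KRT18 ranged from 90.93 to 105.38 FPKM in the vector and 62.48 to 86.92 in the overexpression libraries, and KRT19 from 2.22 to 5.92 and 22.89 to 25.02, while EPCAM reached no more than 0.14 and the E-cadherin gene CDH1 no more than 0.08 in any library. The leukocyte markers PTPRC and CD3E and all 3 acinar markers were listed at 0 in every library. In other marker classes some genes moved between the groups. The mesenchymal gene VIM ranged from 197.85 to 250.45 FPKM with the vector and from 543.43 to 633.62 with overexpression. The 3 markers of that class summed to 201 to 254 and 548 to 637, nearly all of it VIM. ZEB1 stood at 3.19, 2.61 and 3.39 FPKM against 3.98, 2.56 and 2.81. CDH2 stood at 0.56, 0.34 and 0.47 FPKM against 0.3, 0.04 and 0.34. The 5 fibroblast markers, mostly the collagen gene COL1A2 (17.58 to 18.43 and 10.39 to 15.77), summed to 18.4 to 19.5 and 12.1 to 18.1. COL1A1 went the other way (0.36 to 0.92 and 1.5 to 1.99). The 3 endothelial markers, mostly CDH5 (0.14 to 0.27 and 0.48 to 0.64), summed to 0.14 to 0.28 and 0.48 to 0.64. Their part in the changes of the repair genes was not tested.

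Values are FPKM, fragments scaled to gene length and library size, so levels of different genes are comparable per length. The depth of the libraries is unknown. FPKM values summed to between 87162 and 88738 in the vector libraries and between 127768 and 128538 in the overexpression libraries. On the log2(FPKM + 0.5) scale the median of tested genes was higher by 0.208 in the overexpression libraries (1.16-fold). Changes below are therefore relative to that median: each library was centred on the median of the 9694 tested genes, and limma was run on the centred values, with Benjamini-Hochberg adjustment over all of them. "Rose", "fell", "higher" and "lower" as a call mean an adjusted p under 0.05 in that fit.

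Cells mend broken DNA by several routes. Homologous recombination copies the lost stretch from the sister chromatid, with protein filaments on the resected ends that BRCA2 helps to load, and end joining seals the ends directly after the Ku proteins have bound them. The Fanconi anemia proteins unhook crosslinks between the strands. Mismatch repair removes copying errors, and nucleotide excision repair cuts out bulky lesions. In pancreatic cancer, inherited loss of BRCA2, BRCA1 or their partners is known for sensitivity to platinum drugs and PARP inhibitors.

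Most homologous recombination and Fanconi anemia genes were lower in the overexpression libraries relative to the median gene, whereas the Ku genes were higher. Nucleotide excision repair genes went both ways, 4 higher and 3 lower of 8, with a balance that depended on the scaling. Of the 48 members, 45 had a mean of at least 1 FPKM and were tested, and none of these 45 had a group mean under 1 FPKM. The untested members were RAD51AP2, listed at 0 in every library, RAD9B (0.28 to 0.62 FPKM) and FANCD2OS (0.01 to 0.47 FPKM). In limma 22 of 45 were lower, where 19.2% of all tested genes were, and 7 were higher, where 24.0% of all tested genes were. As shares, 48.9% of the tested members were lower and 15.6% higher. The median log2 change was -0.33 over the members and 0.06 over all tested genes. The list was not tested as a whole. In bulk RNA, fewer cells with a transcript and less of it per cell cannot be told apart.

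**Figure D1:**
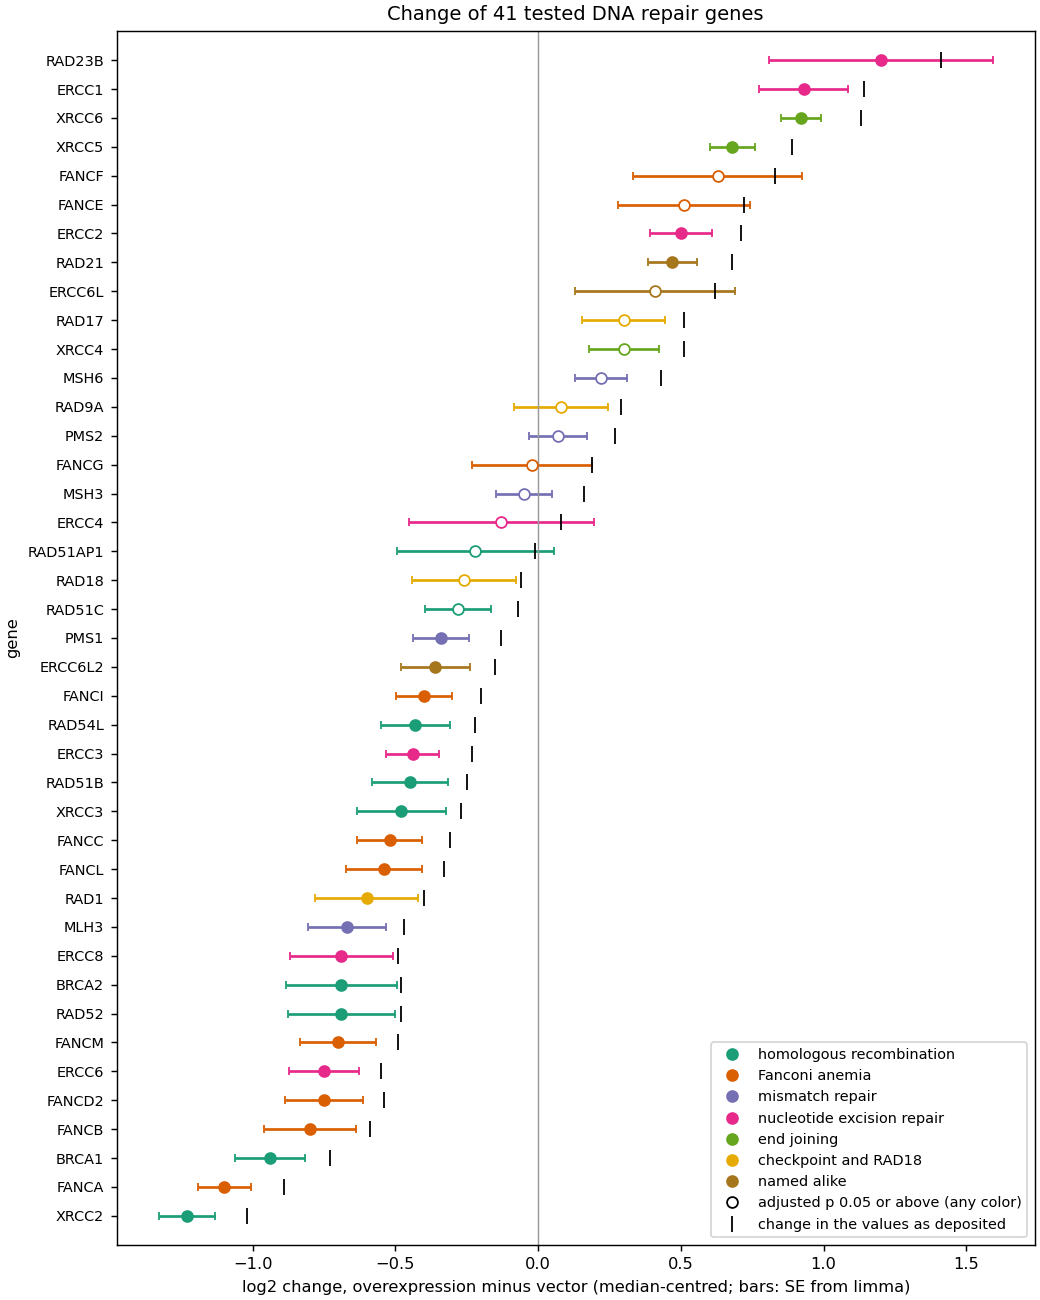
Change of 41 tested members. The horizontal axis is the log2 change from vector to overexpression on median-centred values, with the SE from limma as bars. Colors mark the repair pathway, filled points an adjusted p under 0.05, and black ticks the change in the values as deposited. XRCC2 is at the bottom with -1.23 and RAD23B at the top with 1.20.

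The counts depended on how libraries were scaled. On the values as deposited, 9 members were lower (11.9% of all tested genes) and 11 higher (37.4% of all tested genes). With quantile normalization 19 were lower (20.9% of all) and 5 higher (19.2% of all). With a trend on transcript length and GC content removed 18 were lower (18.0% of all) and 8 higher (20.5% of all), and with a trend on level removed as well 15 were lower (18.4% of all) and 4 higher (17.6% of all). The lower share was above that of all genes in each of these 5 scalings, and the higher share was below it. With the length and GC trend removed the higher share was only slightly below, at 17.8% of the members against 20.5% of all genes. Whether these shares differ was not tested. No called member changed sign among the 5 scalings. Members called lower in all 5 included XRCC2, FANCA, BRCA1, FANCB, FANCD2 and MLH3, and those called higher in all 5 were XRCC6, XRCC5 and ERCC1. These 9 also kept their call when any 1 library was left out.

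**Figure D2:**
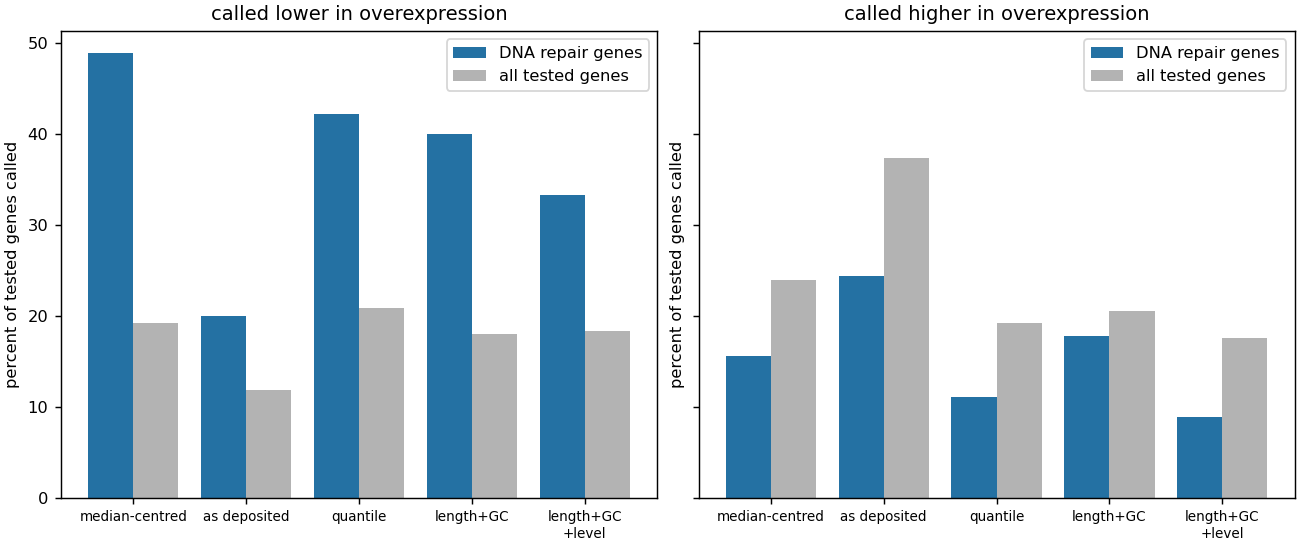
Percent of tested genes called lower (left) and higher (right) in overexpression under 5 scalings of the libraries. Blue bars are the DNA repair genes and grey bars all tested genes. The blue bars are above the grey for lower calls (48.9% against 19.2% on centred values) and below them for higher calls (15.6% against 24.0%). For higher calls with the length and GC trend removed they are only slightly below (17.8% against 20.5%).

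On the deposited FPKM the libraries of the groups did not overlap for 14 members that were lower and 16 that were higher. These are 31.1% and 35.6% of the tested members, against 15.6% and 44.9% of all tested genes. Over the 45 members the log2 change had a Spearman correlation of -0.337 with transcript length, and over all tested genes with a known length it was -0.312. Against the mean FPKM the correlations were 0.395 and 0.254. They are descriptions across genes of the same libraries. The longest transcript of the called members had a median of 4578 bases for those lower and 3761 for those higher, against 3722 for all tested genes. Beyond the scalings with a length trend removed, the part of length and level in the counts was not tested.

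Of the 10 homologous recombination genes tested, 8 were lower and 0 higher, where 19.2% and 24.0% of all tested genes were. Their median log2 change was -0.58. On the values as deposited 3 were lower (11.9% of all tested genes), XRCC2 and BRCA1 among them. With quantile normalization 6 were (20.9% of all). XRCC2, part of a complex that steadies recombination filaments, stood at 12.29, 11.70 and 10.80 FPKM with the vector, against 5.91, 5.13 and 5.40 with overexpression. Every overexpression value lay below every vector value by a wide margin. XRCC2 had the largest fall of the members, a log2 change of -1.23 ± 0.0996 (SE; limma adjusted p = 0.000361).

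BRCA1, the ubiquitin ligase subunit that promotes end resection, stood at 5.53, 6.17 and 6.19 FPKM against 3.87, 2.91 and 3.45. The groups did not overlap, and the log2 change was -0.94 ± 0.122 (SE; limma adjusted p = 0.00153).

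BRCA2, which loads recombination filaments on resected ends, was at 6.81, 9.75 and 10.12 FPKM against 7.43, 4.89 and 6.40. Here the groups overlapped, since overexpression replicate 1 was above vector replicate 1. Its log2 change of -0.69 ± 0.194 (SE; limma adjusted p = 0.0278) lost the call without vector replicate 2 or 3 or overexpression replicate 2 or 3 (limma adjusted p 0.0633 to 0.0805). The BRCA2 call was also lost with the length and GC correction, where the log2 change was -0.20 (adjusted p = 0.379). BRCA2 has one of the longest transcripts of the members, at 11986 bases.

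The annealing factor RAD52 fell from 2.37 ± 0.607 to 1.54 ± 0.197 FPKM and the motor protein gene RAD54L from 9.91 ± 1.30 to 8.42 ± 0.754 (SD, n = 3). The filament-supporting paralogues RAD51B and XRCC3 had log2 changes of -0.45 and -0.48. These calls were less secure. RAD52 lost its call in 5 of 6 removals, keeping it without vector replicate 2 (limma adjusted p 0.0548 to 0.0760 otherwise). RAD51B kept it only without vector replicate 3 (otherwise 0.0633 to 0.0898) and XRCC3 only without overexpression replicate 2 (otherwise 0.0518 to 0.141). RAD54L lost it without vector replicate 1 or 3 or overexpression replicate 1 or 3 (limma adjusted p 0.0654 to 0.0971). RAD51C, of the same paralogue family, and the recombination cofactor gene RAD51AP1 did not pass, with log2 changes of -0.28 (limma adjusted p = 0.0867) and -0.22 (0.545). Without vector replicate 3 RAD51AP1 passed, with a log2 change of -0.55 (limma adjusted p = 0.0149).

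Fanconi anemia genes were lower in 7 of 10 cases and higher in 0, where 19.2% and 24.0% of all tested genes were. Their median log2 change was -0.53. On the values as deposited 4 were lower and 1, FANCE, was higher (11.9% and 37.4% of all tested genes). FANCA, a subunit of the core complex that attaches ubiquitin to FANCD2 and FANCI, stood at 7.79, 7.88 and 8.69 FPKM against 4.26, 3.94 and 4.23. The groups were far apart, with a log2 change of -1.10 ± 0.0926 (SE; limma adjusted p = 0.00041). ZNF276 overlaps FANCA on the other strand in GENCODE 29, and it fell too, by 1.27 on the log2 scale (limma adjusted p = 0.00184). Whether counting used strand is not given in the sources used here, so shared reads of this pair cannot be told apart.

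FANCB, another core subunit, was at 11.24, 7.70 and 11.56 FPKM against 7.16, 6.08 and 6.20. Vector replicate 2 was near the overexpression values but above them all (log2 change -0.80 ± 0.162 SE, limma adjusted p = 0.00769). FANCD2, which carries the ubiquitin mark to the crosslink, was at 6.74, 5.23 and 5.53 against 4.45, 3.54 and 3.55 FPKM. Its groups did not overlap (log2 change -0.75 ± 0.138 SE, limma adjusted p = 0.00543). FANCM, the translocase that anchors the core complex, was at 4.13, 4.14 and 4.90 against 3.43, 2.52 and 3.05 FPKM. FANCM also had no overlap (log2 change -0.70 ± 0.133 SE, limma adjusted p = 0.00627), but with the length, GC and level correction its adjusted p was 0.0577.

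Among the other Fanconi genes, the core subunit FANCC, the ubiquitin ligase FANCL and the FANCD2 partner FANCI had log2 changes of -0.52, -0.54 and -0.40. The FANCL call was lost without overexpression replicate 2 (limma adjusted p = 0.0541) or 3 (0.0597), and the FANCI call without overexpression replicate 3 (0.0562). FANCE, FANCF and FANCG, further core subunits, did not pass. FANCF had 1.43, 2.24 and 1.73 FPKM against 5.97, 2.73 and 2.70, so a single library was far above the rest. FANCE and FANCF were both higher in each overexpression library than in any vector library on the deposited values (limma adjusted p = 0.117 and 0.128). Without vector replicate 3 FANCE passed, with a log2 change of 0.77 (limma adjusted p = 0.0100).

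**Figure D3:**
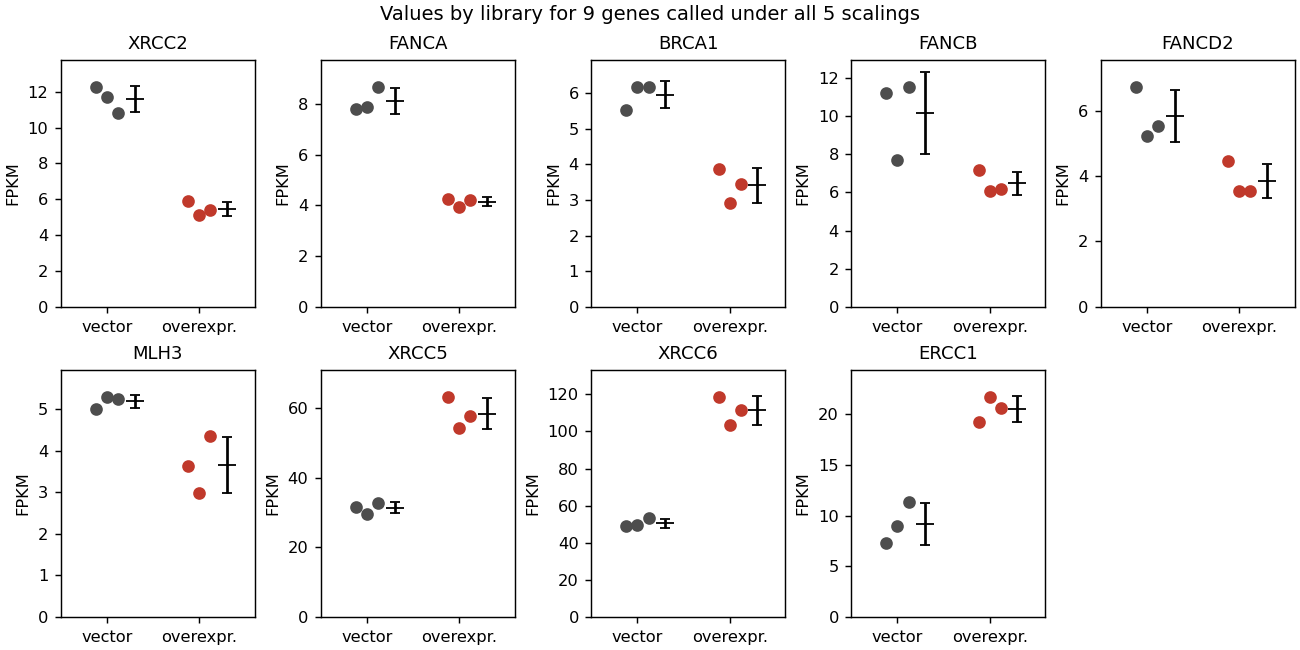
FPKM as deposited in each library for 9 genes called under all 5 scalings, with the mean and SD of each group of 3 beside the points. XRCC2, FANCA, BRCA1, FANCB, FANCD2 and MLH3 are lower in all overexpression libraries, and XRCC5, XRCC6 and ERCC1 are higher in all of them.

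The starts of these genes were searched for letters typical of E2F sites, because E2F factors are known regulators of many recombination genes. Windows around starts from RefSeq (GRCh38.p14, 250 bases before to 50 after a gene start) were matched by symbol for 40 of 48 members. The motif TTCCCGC, on either strand, was present for 8 of 20 lower members, 0 of 4 higher members and 5 of 14 that were not called. Of all genes with a RefSeq window 7.82% had it. These are 40.0% of the lower members and 35.7% of the uncalled ones. TTGGCGC, also E2F-like, was present for 2, 2 and 2 of these members (3.66% of all genes). The letters CCAAT, whose reverse complement can overlap TTGGCGC, were present for 8, 4 and 8 (39.7% of all genes), and TTTGAA, as in cell cycle homology regions, for 2, 1 and 2 (18.2%). A match is only a run of letters, and binding was not measured.

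The stretches below show that lower and uncalled members carry the same letters near their starts. XRCC2 (chr7:152676102-152676131, minus strand), FANCD2 (chr3:10026424-10026453, plus), RAD52 (chr12:949910-949939, minus) and FANCL (chr2:58241406-58241435, minus) were 4 of the 8 lower members with a match. RAD51AP1 (chr12:4538858-4538887, plus) and MSH6 (chr2:47783138-47783167, plus) were not called. These 6 were chosen after the values were seen. Each run of 30 bases reads 5′ to 3′ on the gene's strand, and capitals mark TTCCCGC or its reverse complement.
XRCC2: tggcgttggtgGCGGGAAagttgagtctct
FANCD2: cgtcgggcctgGCGGGAAagtcgaaaacta
RAD52: gagggaagctgGCGGGAAgtaggaggcaga
FANCL: cctccaggatcTTCCCGCcaaggctggggt
RAD51AP1: tctggttttggGCGGGAAttgaaaccgccg
MSH6: tccccccagatTTCCCGCcagcaggagccg

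Of 7 mismatch repair genes tested, 2 were lower and 0 higher, where 19.2% and 24.0% of all tested genes were, with a median log2 change of -0.14. MLH3, a MutL subunit with a role in meiosis, was at 5.01, 5.31 and 5.26 against 3.64, 2.99 and 4.35 FPKM. Every overexpression library was below the vector libraries (log2 change -0.67 ± 0.138 SE, limma adjusted p = 0.00827). PMS1, a MutL subunit of unclear function, had a log2 change of -0.34. Its call was lost on the values as deposited (limma adjusted p = 0.296), with the length and GC correction (0.0743) and without vector replicate 1 or 2 or overexpression replicate 2 or 3 (0.0636 to 0.107). ORMDL1 overlaps PMS1 on the other strand and was lower as well (log2 change -0.70, limma adjusted p = 0.0222).

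MSH6, which recognizes base mismatches, was at 15.06, 17.31 and 16.86 against 23.49, 20.55 and 22.61 FPKM. On the deposited values every overexpression library was above every vector library, but the centred log2 change was 0.22 (limma adjusted p = 0.0925). MSH6 passed on the values as deposited (log2 change 0.43, adjusted p = 0.00935) and with the length and GC correction (0.41, 0.00812). Its sign turned with quantile normalization (-0.04, adjusted p = 0.742).

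PMS2, the MutL subunit that nicks the new strand, was at 6.44, 6.29 and 6.67 against 8.94, 7.45 and 7.46 FPKM. The groups did not overlap on the deposited values, but the centred log2 change of PMS2 was 0.07 (limma adjusted p = 0.627). PMS2 has 10 pseudogene copies by name in GENCODE 29, so its level is uncertain where reads were shared.

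Of 8 nucleotide excision repair genes tested, 4 were higher and 3 lower, where 24.0% and 19.2% of all tested genes were. The counts were 4 and 1 without centring (37.4% and 11.9% of all tested genes). They were 1 and 2 once the length, GC and level trend was removed (17.6% and 18.4% of all), so the balance depended on the scaling. RAD23B, which stabilizes the lesion sensor XPC, stood at 20.89, 7.05 and 8.48 against 22.64, 31.53 and 35.94 FPKM. Vector replicate 1 was close to overexpression replicate 1, and the groups did not overlap.

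RAD23B had the largest rise among the members (log2 change 1.20 ± 0.393 SE, limma adjusted p = 0.0455), yet its call held in only 1 of the 6 removals, that of vector replicate 1. In the other removals the limma adjusted p was 0.0570 to 0.125, and with quantile normalization it was 0.104. RAD23B also has pseudogene copies by name in GENCODE 29, which can share reads. ERCC1, the DNA-binding subunit of the ERCC1-XPF nuclease, was at 7.26, 8.98 and 11.36 FPKM against 19.21, 21.76 and 20.67. These groups did not come near each other (log2 change 0.93 ± 0.155 SE, limma adjusted p = 0.00378). ERCC1 overlaps FOSB and CD3EAP on the other strand in GENCODE 29. The joined row FOSB;CD3EAP was at 0.64, 0.98 and 0.46 against 7.23, 7.84 and 9.0 FPKM, a log2 change of 2.65 (limma adjusted p = 0.00026). Reads of ERCC1 and of that row cannot be told apart without strand.

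The TFIIH helicases moved apart. ERCC2, or XPD, was at 4.82, 5.58 and 4.62 FPKM against 8.56, 8.08 and 8.78, with a log2 change of 0.50 ± 0.108 (SE; limma adjusted p = 0.00998). Its call was lost with the length and GC correction (adjusted p = 0.0551). ERCC3, or XPB, fell from 7.81 ± 0.299 to 6.58 ± 0.382 FPKM (SD, n = 3; log2 change -0.44, limma adjusted p = 0.00911), but on the values as deposited its adjusted p was 0.0760. The factors that start repair at stalled RNA polymerase were both lower. ERCC6, or CSB, was at 6.83, 6.21 and 5.36 against 4.31, 3.99 and 3.79 FPKM.

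The ERCC6 groups did not overlap (log2 change -0.75 ± 0.122 SE, limma adjusted p = 0.00336), although with the length and GC correction the change was -0.37 (adjusted p = 0.0460), and with level as well the call was lost (0.0510). ERCC8, or CSA, had a log2 change of -0.69 (limma adjusted p = 0.0202). It lost the call without vector replicate 1 or 2 or overexpression replicate 2 or 3 (0.0569 to 0.0634), and on the values as deposited (0.0612). ERCC4, or XPF, did not pass (1.72 ± 0.701 against 1.82 ± 0.646 FPKM, SD, n = 3; limma adjusted p = 0.764).

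Of 3 end joining members 2 were higher and 0 lower, where 24.0% and 19.2% of all tested genes were. XRCC6 and XRCC5 encode Ku70 and Ku80, which encircle broken ends, and they had the highest levels of all members in both groups. XRCC6 stood at 48.75, 49.71 and 53.32 FPKM against 118.75, 103.46 and 111.63. XRCC5 was at 31.61, 29.59 and 32.73 against 63.30, 54.20 and 57.81 FPKM. For both genes the lowest overexpression value exceeded the highest vector value by a wide margin.

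The log2 change was 0.92 ± 0.0701 (SE; limma adjusted p = 0.000291) for XRCC6 and 0.68 ± 0.0781 (SE; limma adjusted p = 0.000979) for XRCC5. With quantile normalization the log2 change was 0.39 for XRCC6 (adjusted p = 0.00644) and 0.27 for XRCC5 (0.0400). XRCC6 has 5 pseudogene copies by name, which can share reads. XRCC4, the scaffold of the end-joining ligase, stood at 6.75 ± 0.481 FPKM with the vector against 9.85 ± 1.47 with overexpression (SD, n = 3). It did not pass after centring (log2 change 0.30, limma adjusted p = 0.0905) and passed on the values as deposited (0.51, 0.0161).

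Of 4 checkpoint and PCNA ubiquitin ligase genes tested, 1 was lower and 0 higher, where 19.2% and 24.0% of all tested genes were. RAD1, a subunit of the clamp that activates ATR, fell from 5.49 ± 1.38 to 3.98 ± 0.362 FPKM (SD, n = 3; log2 change -0.60, limma adjusted p = 0.0331). Its call held only without vector replicate 1 (otherwise 0.0531 to 0.0998), and it was lost on the values as deposited (0.104). The clamp subunit RAD9A, the clamp loader RAD17 and the PCNA ubiquitin ligase RAD18 had log2 changes of 0.08, 0.30 and -0.26. Their limma adjusted p was 0.711, 0.135 and 0.272. RAD17 passed on the values as deposited (log2 change 0.51, adjusted p = 0.0272), with the length and GC correction (0.39, 0.0491) and without overexpression replicate 2 (0.46, 0.0226).

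A few members share the family names but act elsewhere or more broadly. RAD21, the cohesin subunit that holds sister chromatids together, was at 17.27, 18.98 and 20.29 FPKM against 32.26, 29.08 and 30.22. All overexpression values exceeded all vector values (log2 change 0.47 ± 0.0848 SE, limma adjusted p = 0.0049). With quantile normalization the RAD21 change was 0.18 (adjusted p = 0.155). ERCC6L, a mitotic translocase, did not pass (11.3 ± 4.31 against 16.8 ± 1.67 FPKM, SD, n = 3; log2 change 0.41, limma adjusted p = 0.265). ERCC6L2, of the same ATPase family, had a log2 change of -0.36 (limma adjusted p = 0.0492), kept only without overexpression replicate 1 (otherwise 0.0584 to 0.146). The ERCC6L2 call was also lost with each of the other scalings, with an adjusted p of 0.346 on the values as deposited.

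Ratios between genes whose proteins work as partners do not depend on a library's total. For 3 of the 6 pairs given here the ratio in the libraries of one group did not overlap that of the other. The ERCC2 to ERCC3 ratio was 0.591, 0.726 and 0.609 with the vector against 1.33, 1.29 and 1.25, so ERCC2 went from the lower to the higher of the TFIIH helicases. The FANCD2 to FANCI ratio went from 0.426 ± 0.0749 to 0.321 ± 0.0141 (SD, n = 3).

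XRCC6 to XRCC5 went from 1.62 ± 0.0696 to 1.91 ± 0.0277 (SD, n = 3). Each of these 3 had an exact two-sided permutation p of 0.1, the smallest that 3 against 3 allows, and 0.25 after Benjamini-Hochberg adjustment over the 10 pairs computed, so none could pass 0.05. The other 3 ratios overlapped, and that of XRCC3 to RAD51C was 0.870 ± 0.0923 against 0.745 ± 0.137 (SD, n = 3). ERCC6 to ERCC8 had a mean of 1.87 in both groups. ERCC1 to ERCC4 ranged from 3.20 to 12.2 in the vector libraries and from 8.80 to 17.5 in the overexpression libraries. A ratio can show that partners changed unequally on the deposited values and not which of them did. It does not remove a trend on length, GC content or level. With these trends removed XRCC6 and XRCC5 changed alike, by 0.39 and 0.40 on the log2 scale. The unequal change of that pair thus depended on the scaling. FANCD2 and FANCI then changed by -0.63 and -0.47, and ERCC2 and ERCC3 by 0.27 and -0.44.

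**Figure D4:**
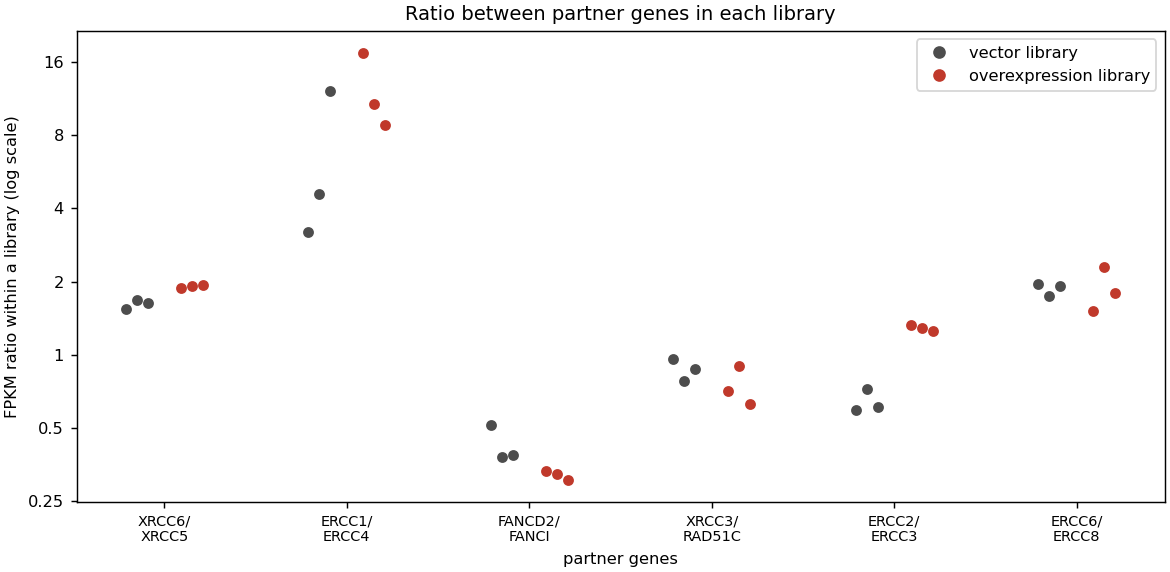
FPKM ratio of partner genes within each library, on a log axis, for 6 pairs. Grey points are vector and red points overexpression libraries. The groups separate for ERCC2/ERCC3, FANCD2/FANCI and XRCC6/XRCC5 and overlap for the other pairs.

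Partners of the members outside these gene names are given from lists, with up to 3 called genes named by absolute change. Of 27 homologous recombination partners 9 were lower and 1 higher (median log2 change -0.27), where 19.2% and 24.0% of all tested genes were. The other partners were not called. On the values as deposited the counts were 7 and 5 (11.9% and 37.4% of all). The resolvase GEN1 was at 3.76, 10.98 and 9.93 against 1.90, 2.36 and 2.46 FPKM, with no overlap between groups. Its log2 change was -1.76 (limma adjusted p = 0.0088). The BRCA1-bound helicase BRIP1 and the topoisomerase TOP3A had log2 changes of -1.06 and -1.04 (limma adjusted p = 0.00182 and 0.0018). These genes were also lower with each of the other scalings.

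Of 11 Fanconi anemia partners 2 were lower, FAN1 and USP1, and 1 higher, WDR48 (19.2% and 24.0% of all tested genes). FAN1, a nuclease, changed by -0.45 and USP1, which removes ubiquitin from FANCD2, by -0.48 on the log2 scale. FAN1 lost its call without vector replicate 2 or overexpression replicate 1 or 2 (limma adjusted p 0.0534 to 0.0670). USP1 lost it without vector replicate 1 or 2 or overexpression replicate 2 or 3 (0.0622 to 0.0692). Both were uncalled on the values as deposited. WDR48, the activator of USP1, rose from 3.59 ± 0.617 to 7.28 ± 0.245 FPKM (SD, n = 3; log2 change 0.73, limma adjusted p = 0.0053).

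Base excision repair, which removes damaged single bases, went the other way. Of 16 tested genes 8 were higher and 1, TDG, lower, where 24.0% and 19.2% of all tested genes were. The median log2 change was 0.51. TDG lost its call without vector replicate 1 or overexpression replicate 2 or 3 (limma adjusted p 0.0533 to 0.0624). After the length, GC and level correction 5 were higher and 2 lower (17.6% and 18.4% of all tested genes). The abasic endonuclease APEX1 was at 9.69, 9.02 and 8.04 FPKM against 25.51, 27.25 and 27.40. The groups lay far apart (log2 change 1.33, limma adjusted p = 0.000273). The glycosylase genes MPG and NEIL2 had log2 changes of 1.35 and 1.13 (limma adjusted p = 0.0121 and 0.0109), and MPG was uncalled with the length and GC correction.

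Of 15 nucleotide excision repair partners 7 were higher and 5 lower, where 24.0% and 19.2% of all tested genes were. Without centring these counts were 7 and 1 (37.4% and 11.9% of all tested genes). Once the length, GC and level trend was removed they were 4 and 6 (17.6% and 18.4% of all). The centrin CETN2, bound to XPC, the TFIIH subunit GTF2H5 and the damage sensor subunit DDB1 rose by 1.40, 0.77 and 0.76 on the log2 scale. GTF2H5 kept its call only without vector replicate 2 (limma adjusted p otherwise 0.0582 to 0.0666). Of 9 end joining partners 3 were lower and 1 higher, where 19.2% and 24.0% of all tested genes were. The nuclease Artemis, DCLRE1C, was at 5.97, 5.26 and 5.56 against 2.40, 2.72 and 2.19 FPKM, without overlap (log2 change -1.26, limma adjusted p = 0.000514). POLM and LIG4, a polymerase and the ligase of the pathway, had log2 changes of -0.63 and -0.55.

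POLM kept its call only without vector replicate 1 (limma adjusted p otherwise 0.0628 to 0.103). LIG4 kept its call without vector replicate 2 or overexpression replicate 1 (otherwise 0.0899 to 0.114). The fall of DCLRE1C therefore stood beside a rise of the Ku genes of the same pathway.

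Damage signalling genes were called in both directions, 4 higher and 4 lower of 19, close to the 24.0% and 19.2% of all tested genes. The counts were 6 and 2 without centring (37.4% and 11.9% of all). They were 1 and 1 once the length and GC trend was removed (20.5% and 18.0% of all). MAD2L2, a shieldin and translesion polymerase subunit, rose by 0.77 on the log2 scale (limma adjusted p = 0.00354), and the kinase ATR changed by -0.68 (0.00209). The MAD2L2 call was lost with the length and GC correction (adjusted p = 0.0760). Of 12 translesion and direct reversal genes 4 were lower and 1 higher, the latter again MAD2L2 (19.2% and 24.0% of all tested genes). REV3L, the catalytic subunit that works with MAD2L2, had a log2 change of -0.64 and lost its call without vector replicate 2 or 3 or overexpression replicate 2 or 3 (limma adjusted p 0.0617 to 0.0760). SHPRH, a PCNA ubiquitin ligase, also changed by -0.64 (limma adjusted p = 0.00424), and its adjusted p was 0.0515 with the length and GC correction.

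S phase and proliferation markers, which many recombination genes follow through the cell cycle, were 5 higher and 5 lower of 24. These counts were close to the 24.0% and 19.2% of all tested genes, and the median log2 change was 0.02. The counts were 11 and 4 on the values as deposited (37.4% and 11.9% of all). With the length, GC and level correction they were 0 and 10 (17.6% and 18.4% of all), so the direction of the list depends on the scaling. The cyclin gene CCNE2 was at 4.15, 2.37 and 3.52 against 1.22, 1.29 and 1.34 FPKM, and the transcription factor gene E2F1 at 10.50, 7.03 and 9.32 against 5.21, 5.55 and 5.46. Both were lower in every overexpression library, with log2 changes of -1.29 and -0.87 (limma adjusted p = 0.00238 and 0.00411). The licensing factor CDT1 rose by 0.64 (limma adjusted p = 0.0107), a call lost with the length, GC and level correction (0.309). The part of cell cycle phase in the changes of the recombination genes was not tested.

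**Figure D5:**
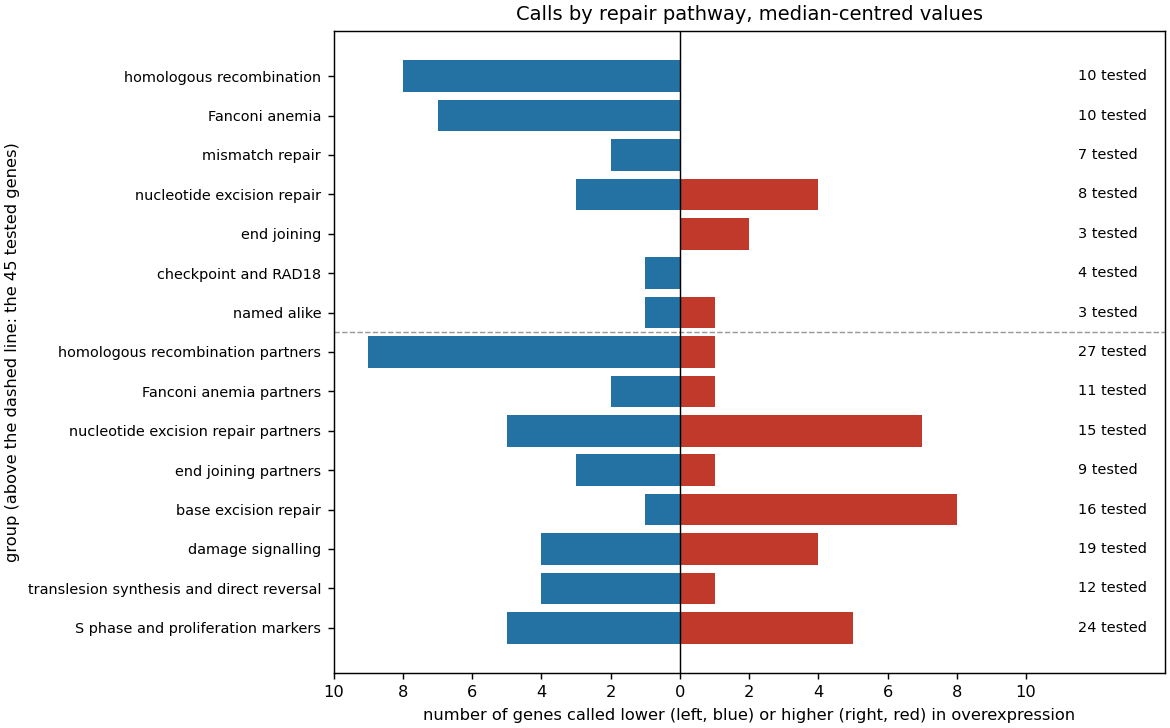
Number of genes called lower (blue, left) and higher (red, right) in overexpression on median-centred values, by pathway, with the number tested at the right. Above the dashed line are the 45 tested members and below it the lists of partners and markers. Homologous recombination (8 lower, 0 higher) and base excision repair (1 lower, 8 higher) stand at opposite sides.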

How the data were processed

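RNA of 6 libraries of MIA PaCa-2 cells was sequenced, 3 per group. The deposited table holds FPKM values made by the authors, 1 per gene and library. Tools named in the submitters' processing notes are HISAT2, cutadapt and FastQC, with build hg19. The sources used here give neither their versions nor the tool behind the FPKM values. Depth is unknown: ratios of low values between vector replicates 1 and 2 (548 genes) showed no common step, with at most 2.74% in a window of 0.02 log2, so whole reads were not recovered and no count model was used.

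Values were taken as log2(FPKM + 0.5), genes with a mean under 1 FPKM were left out, and each library was centred on its median. Fold changes on this scale understate those of low genes. Groups were compared in limma 3.58.1 under R 4.3.3, with a trend of variance on level and without a replicate block, over 9694 rows, at an adjusted p of 0.05. Longest-transcript length and GC content came from GENCODE 29, matched by symbol for 91.1% of tested rows. Its build differs from hg19, so no gene coordinates from it are printed. Its gene positions were used to find genes that overlap members.

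Members, lists and rules were chosen with earlier results of these data known, and partner pairs and the correction with level after seeing the values. The rule for values by library took the 8 largest falls and the 8 largest rises among called members, and a few genes whatever their result, among them BRCA1, BRCA2, FANCD2, MSH6, PMS2, ERCC1, XRCC5, XRCC6 and XRCC1. Some genes are not reported here by name, though the counts include them, and 1 fixed list is not described. Up to 3 called genes per list are named by absolute change. MLH3, FANCF, TDG and the list genes shown by library were chosen after their values were seen.

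Alternatives were other scalings, pseudocounts (1 and 0.1), filters, variance models, a replicate block, joined rows left out, and each library left out. The fit was tested on simulated data. It called 23.1% of genes with a true log2 change of 0.5, 62.5% at 1 and 92.2% at 2. Of unchanged genes it called 0.0634%. Smaller changes were thus mostly missed there. Few genes were changed in the simulation, unlike in the data, so these rates need not carry over. Tables, permutation tests and figures were made in Python 3.11.15 using numpy 2.4.6, pandas 2.3.3, matplotlib 3.10.9 and scipy 1.17.1.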

Additional observations from a re-analysis of the deposited data

How the results depend on the processing

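The number of members lower in overexpression (22) became 9 on the values as deposited and 10 with a mean of at least 5 FPKM, where 26 members were tested. Leaving out 1 library gave 11 to 17 lower and 6 or 7 higher members. It was 14 without overexpression replicate 2 and 11 without overexpression replicate 3, fits with fewer samples. The number higher (7) became 11 on the values as deposited and 4 with the length, GC and level correction. The remaining alternatives kept both counts within 1.5 times. With the replicate block 15 members were lower and 6 higher. BRCA2, ERCC6L2, PMS1, RAD23B, RAD51B, RAD52, RAD54L and XRCC3 lost their call under the block. Shares of all tested genes are not given here for the filter, the removals or the block. In these fits, fewer calls among the members cannot be told from fewer calls over all genes. Deviations of same-numbered libraries correlated at -0.037, -0.00574 and -0.00503, and no library correlated best with its own number. No shared deviation by number was seen. With so few libraries per group this cannot decide whether the numbers mark a shared culture or day, which the labels do not say. No called member reversed. Among the uncalled members reported, MSH6 turned to -0.04 with quantile normalization. On the values as deposited ERCC4 turned to 0.08, FANCG to 0.19 and MSH3 to 0.16. With the length and GC correction ERCC4 turned to 0.07, MSH3 to 0.04 and RAD9A to -0.29, and with level as well to 0.26, 0.02 and -0.10. Without the filter FANCG was 0.04 and MSH3 0.01. When 1 library was left out ERCC4 lay between -0.43 and 0.12, FANCG between -0.25 and 0.11 and RAD9A between -0.06 and 0.16. PMS2 turned to -0.01 with the length and GC correction, -0.03 with level as well, -0.05 with a mean of at least 5 FPKM and lay between -0.01 (without overexpression replicate 1) and 0.11 when 1 library was left out. Where no sentence says otherwise, the cause was not tested. Depth is unknown, so counting error could not be given.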

Other observations

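Rows that join a name of these families with other genes were not members, because their values cannot be assigned to 1 gene. FSBP;RAD54B was at 3.87, 4.23 and 6.14 FPKM with the vector, against 3.45, 2.75 and 3.02 with overexpression, a centred log2 change of -0.74 (limma adjusted p = 0.0137). MSH5;SAPCD1 was at 4.38, 5.39 and 6.22 against 3.15, 3.18 and 3.24 FPKM, a log2 change of -0.86 (limma adjusted p = 0.00302). In both rows every overexpression value lay below every vector value. RAD54B is a recombination motor protein and MSH5 a meiotic MutS protein. XRCC1, the scaffold of single-strand break repair, stood in the row IRGQ;XRCC1;L34079 at 4.4, 4.69 and 4.44 against 4.19, 5.6 and 5.58 FPKM, with overlapping groups. The rows RAD50;AC116366, IRGQ;XRCC1;L34079 and RFFL;RAD51D;AC004223 did not pass, with log2 changes of 0.02, -0.05 and -0.25 (limma adjusted p = 0.929, 0.779 and 0.12).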
